A study of Mus musculus with 12 samples.

Results

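A set of 9 interferon-stimulated genes was followed by RNA sequencing in mouse muscle: Isg15, Usp18, Ifit1, Ifit3, Oasl2, Rsad2, Bst2, Irf7 and Ifi35. They were chosen by name, by matching Ensembl gene identifiers of the count table to these mouse symbols, with no threshold on a measured value. All 9 of 9 were found among the 47729 genes of the table, and all 9 passed the filter on low counts together with 14194 genes in all. The 12 libraries fell into 4 groups of 3: NRF2-KO mice that had exercised on a treadmill (KO treadmill), NRF2-KO mice without exercise (KO sedentary), C57BL/6 mice that had exercised on a treadmill (WT treadmill) and C57BL/6 mice without exercise (WT sedentary). Every animal was a male aged 5 months on a C57BL/6 background. NRF2, the product of Nfe2l2, drives transcription of antioxidant and detoxification genes. The labels do not name the muscle, the duration of the exercise or the design of the knockout allele, and do not say how the 3 samples of a group relate to each other, so the p-values speak only to the spread among the samples at hand.

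Interferon-stimulated genes are switched on when type I interferons bind their receptor on the cell surface. Receptor kinases then activate a transcription factor complex, of which STAT2 and IRF9 are parts, that binds a short DNA element, the interferon-stimulated response element, in the promoters of these genes. Many of the products block steps of viral replication, and in uninfected tissue they are usually present at a low tonic level.

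The promoters are shown because they carry the element through which most of these genes are known to respond. RefSeq promoters of GRCm38.p6, running from 250 bases before to 50 bases after each start site, were matched for 8 of the 9 genes, all but Usp18. They were searched on both strands for an ISRE-type motif spelled GAAANNGAAA, where N is any base. The motif was found in 5 of the 8 promoters, those of Isg15, Ifit1, Ifit3, Rsad2 and Bst2, and in 3.44% of 32851 RefSeq promoters of the same length. The lines below give 70 bases of each on the strand of the gene, 5′ to 3′, with every base of a match in capitals. A match on the opposite strand reads as TTTC, any pair of bases and TTTC. The windows lie at chr4:156200851-156200920 (minus strand) for Isg15, chr19:34640764-34640833 (plus strand) for Ifit1, chr19:34583360-34583429 (plus strand) for Ifit3, chr12:26456533-26456602 (minus strand) for Rsad2 and chr8:71537560-71537629 (minus strand) for Bst2.
Isg15: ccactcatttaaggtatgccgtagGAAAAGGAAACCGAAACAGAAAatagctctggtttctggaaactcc
Ifit1: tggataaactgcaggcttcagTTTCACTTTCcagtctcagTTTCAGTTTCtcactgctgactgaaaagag
Ifit3: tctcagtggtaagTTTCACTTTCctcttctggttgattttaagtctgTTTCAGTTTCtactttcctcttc
Rsad2: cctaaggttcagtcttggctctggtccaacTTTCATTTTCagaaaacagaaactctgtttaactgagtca
Bst2: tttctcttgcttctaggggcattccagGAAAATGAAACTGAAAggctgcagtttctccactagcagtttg

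Isg15 held 3 overlapping matches, whose first bases lay 78, 72 and 66 bases before the start site. Ifit1, Ifit3 and Bst2 held 2 each and Rsad2 held 1, whereas 0.225% of all promoters held 2 or more. The same pair of sites, TTTCACTTTC and TTTCAGTTTC, occurred in Ifit1 and Ifit3, at 104 and 85 bases before the start site of Ifit1 and at 156 and 122 bases before that of Ifit3. A GAS-type motif, TTCNNNGAA, was found in 2 of the 8, Bst2 and Ifi35, and in 8.3% of all promoters; in Bst2 it overlapped an ISRE-type match. An ARE-type motif, TGACNNNGC, the kind bound by NRF2, was found in 3 of the 8, Oasl2, Rsad2 and Irf7, and in 12.4% of all promoters. A match of letters does not show binding, and the absence of one says only that these letters do not occur in this window.

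**Figure D1:**
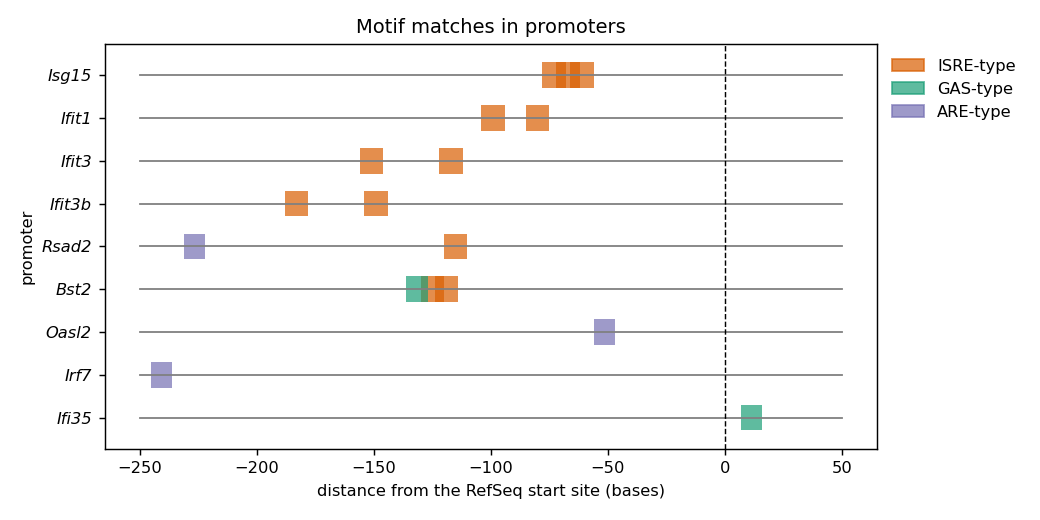
Positions of motif matches in the promoters of 8 interferon-stimulated genes and of Ifit3b, the near copy of Ifit3. The horizontal axis gives bases from the RefSeq start site (dashed line at 0), each line is 1 promoter, and each block is 1 match on either strand. ISRE-type matches lie before the start site in Isg15, Ifit1, Ifit3, Ifit3b, Rsad2 and Bst2.

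All 9 genes were detected in every library, at low levels. Total counts ran from 21232040 to 29990968 per library, and the lowest count of any of the 9 genes was 20 reads, for Isg15. The level of a gene is its CPM, a count divided by the scaled total of its library, and genes are compared with each other by CPM per kilobase of annotated exon. On the per-kilobase scale Bst2 was highest with a mean of 9.20 over the 12 libraries and Ifi35 next with 7.89. Ifit3 followed at 2.40, Isg15 at 1.91, Ifit1 at 1.40, Usp18 at 1.28, Rsad2 at 1.24, Irf7 at 0.98 and Oasl2 at 0.37. The exons annotated for Irf7 merge into 1 block of 3776 bases and those of Oasl2 add up to 6374 bases, so their per-kilobase levels depend on how much of that length the transcripts in muscle use.

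In none of the 7 comparisons did any of the 9 genes change past the threshold, an adjusted p of 0.05 over all 14194 genes. The KO sedentary group nevertheless had the highest mean level of the 4 groups in 8 of the 9 genes, and WT sedentary in Irf7. The gene that stood apart most was Rsad2, whose 3 KO sedentary libraries lay above all 9 other libraries. In 5 of the 9 genes, Ifit1, Ifit3, Oasl2, Bst2 and Ifi35, no neighbouring group means differed by more than the pooled SD within groups; in Isg15, Usp18, Rsad2 and Irf7 1 pair of neighbours did.

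**Figure D2:**
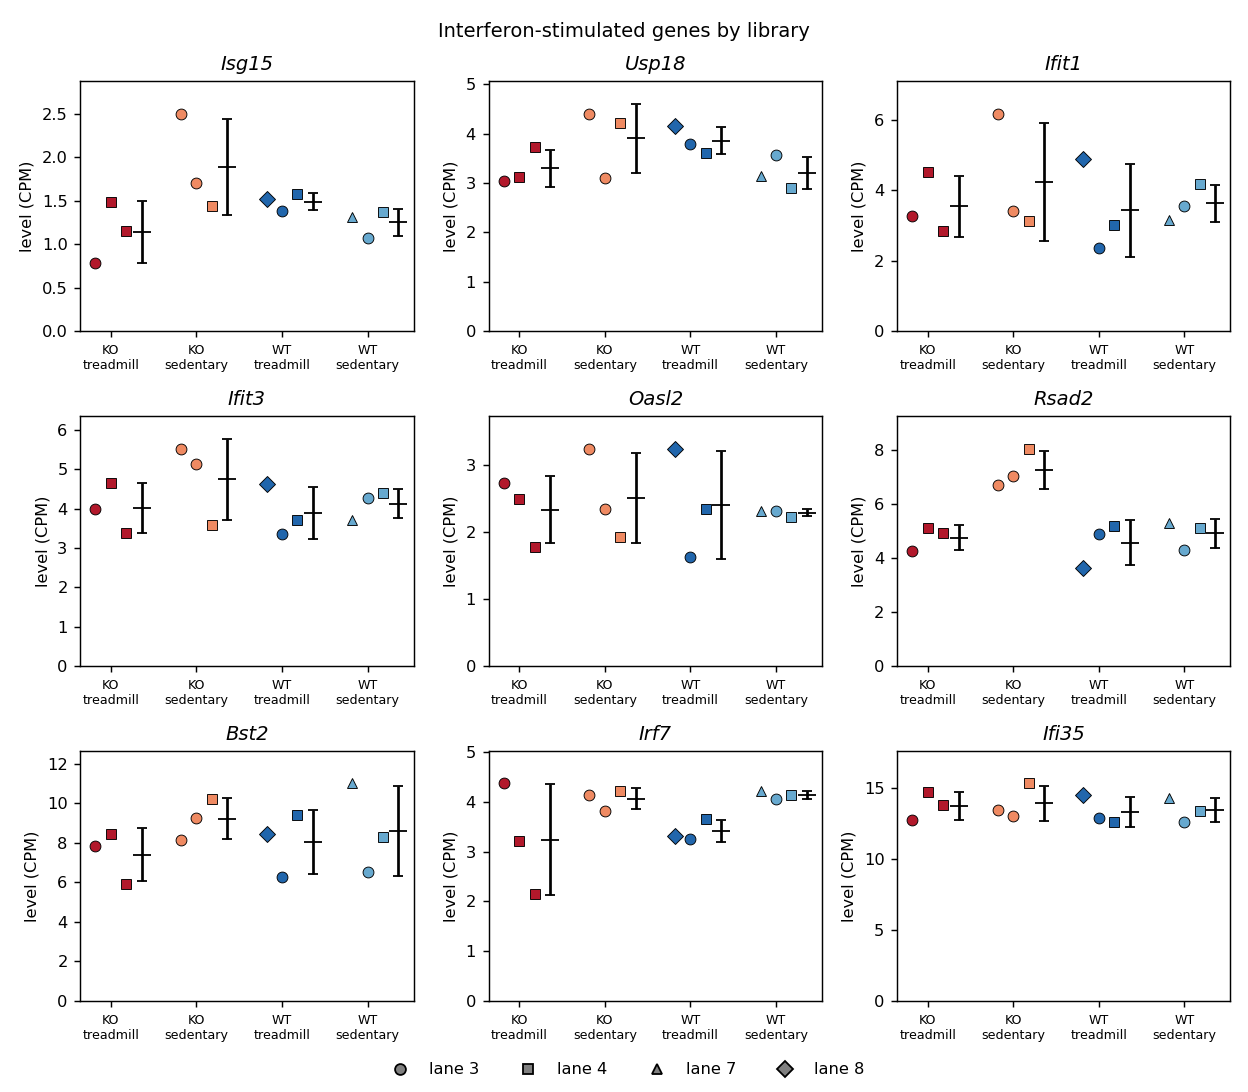
Level of each of the 9 genes in each library. The vertical axes give CPM from 0, points are libraries in the order of their replicate numbers, their shapes give the sequencing lane, and the bar beside each group is the mean ± SD of 3 libraries. Rsad2 in the KO sedentary group, at 6.69 to 8.06 CPM, lies above every other library.

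Isg15 encodes a ubiquitin-like protein that is attached to other proteins after interferon treatment. The gene lies at chr4:156199424-156200818 (GRCm38, minus strand). Isg15 measured 0.78, 1.49 and 1.15 CPM in the KO treadmill libraries, 2.50, 1.71 and 1.44 CPM in the KO sedentary libraries, 1.52, 1.38 and 1.57 CPM in the WT treadmill libraries and 1.32, 1.08 and 1.37 CPM in the WT sedentary libraries. The KO sedentary libraries lay above all WT sedentary libraries and the WT treadmill libraries lay above all WT sedentary libraries, whereas the KO treadmill and WT treadmill libraries overlapped. These levels rest on 20 to 58 reads, for which counting error alone gives a coefficient of variation of 17.2%, against 22.5% between libraries of a group. Isg15 had a log2 fold change of 0.57 (SE 0.25) in KO sedentary over WT sedentary muscle, with an adjusted p of 0.62 (edgeR quasi-likelihood test, Benjamini-Hochberg). That difference was 0.32 without KO sedentary replicate 1, and the log2 difference was 0.90 among lane 3 libraries and 0.07 among lane 4 libraries. Most group means within a lane are a single library.

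Usp18 encodes the protease that removes ISG15 from proteins and that dampens signalling by the interferon receptor. It lies at chr6:121245906-121270917 (plus strand). Usp18 measured 3.04, 3.12 and 3.73 CPM in the KO treadmill libraries, 4.40, 3.10 and 4.21 CPM in the KO sedentary libraries, 4.15, 3.80 and 3.62 CPM in the WT treadmill libraries and 3.15, 3.56 and 2.91 CPM in the WT sedentary libraries. The WT treadmill libraries lay above all WT sedentary libraries, and the other pairs of groups overlapped. Its log2 fold change was 0.29 (SE 0.16, adjusted p = 0.702) in KO sedentary over WT sedentary and 0.27 (SE 0.16, adjusted p = 0.999) in WT treadmill over WT sedentary muscle.

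Ifit1 and Ifit3 encode tetratricopeptide-repeat proteins, of which IFIT1 binds viral RNA that lacks the host's cap methylation. Ifit1 lies at chr19:34640871-34650009 and Ifit3 at chr19:34583531-34588731, both on the plus strand. Ifit1 measured 3.28, 4.52 and 2.85 CPM in the KO treadmill libraries, 6.17, 3.42 and 3.14 CPM in the KO sedentary libraries, 4.90, 2.37 and 3.02 CPM in the WT treadmill libraries and 3.15, 3.56 and 4.19 CPM in the WT sedentary libraries. Its groups overlapped in every comparison, and KO sedentary replicate 1 and WT treadmill replicate 1 were the highest libraries. Ifit1 had the largest coefficient of variation within groups of the 9 genes, 30.9% against 10.8% from counting alone. Ifit3 measured 3.98, 4.65 and 3.39 CPM in the KO treadmill libraries, 5.53, 5.13 and 3.58 CPM in the KO sedentary libraries, 4.64, 3.35 and 3.70 CPM in the WT treadmill libraries and 3.72, 4.26 and 4.40 CPM in the WT sedentary libraries. Its groups overlapped in every comparison as well, and it was again highest in KO sedentary replicate 1. Ifit3 shares sequence with Ifit3b, described further on, and Ifit1 shares 7.06% of its 50-base windows with Ifit1bl2, so reads of both genes may be divided with a copy.

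Oasl2 encodes an oligoadenylate synthetase-like protein with ubiquitin-like domains. It lies at chr5:114896936-114912234 (plus strand). Oasl2 measured 2.73, 2.48 and 1.77 CPM in the KO treadmill libraries, 3.24, 2.35 and 1.92 CPM in the KO sedentary libraries, 3.24, 1.63 and 2.34 CPM in the WT treadmill libraries and 2.31, 2.32 and 2.22 CPM in the WT sedentary libraries. Its groups overlapped in every comparison, and its highest libraries, KO sedentary replicate 1 and WT treadmill replicate 1, were also those of Ifit1.

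Rsad2 encodes viperin, a radical-SAM enzyme that makes a chain-terminating nucleotide. The gene lies at chr12:26442746-26456452 (minus strand). Rsad2 measured 4.25, 5.10 and 4.93 CPM in the KO treadmill libraries, 6.69, 7.04 and 8.06 CPM in the KO sedentary libraries, 3.63, 4.88 and 5.19 CPM in the WT treadmill libraries and 5.30, 4.31 and 5.13 CPM in the WT sedentary libraries. All KO sedentary libraries lay above all libraries of the other groups, which overlapped each other. KO sedentary muscle averaged 7.26 ± 0.71 CPM and WT sedentary muscle 4.91 ± 0.53 CPM (SD, n = 3 each), a 1.48-fold difference with a 95% interval of 1.19 to 1.83. Its log2 fold change was 0.56 (SE 0.15), and its adjusted p was 0.263 (edgeR quasi-likelihood test, Benjamini-Hochberg), so it did not pass. KO treadmill muscle averaged 4.76 ± 0.45 CPM, 1.53-fold lower than KO sedentary muscle (log2 fold change -0.61, SE 0.15), with an adjusted p of 1 by edgeR. The unadjusted edgeR p of Rsad2 was 0.00179 in the sedentary comparison and 0.000984 in the exercise comparison. In WT muscle the log2 fold change between treadmill and sedentary was -0.12 (SE 0.15, adjusted p = 0.999). Since all KO sedentary libraries lay above all others, the direction of both differences within a lane was fixed in advance. Their sizes within a lane rest on few libraries of each group. KO sedentary minus WT sedentary was 0.66 in lane 3 and 0.64 in lane 4 (log2). KO treadmill minus KO sedentary was -0.68 in lane 3 and -0.68 in lane 4. With no filter on low counts Rsad2 passed the threshold in both comparisons, with adjusted p of 0.0439 and 0.0258, and under the other alternatives tried it did not.

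Bst2 encodes tetherin, which holds budding virus particles on the cell surface. It lies at chr8:71534255-71537456 (minus strand). Bst2 measured 7.84, 8.45 and 5.89 CPM in the KO treadmill libraries, 8.16, 9.27 and 10.2 CPM in the KO sedentary libraries, 8.43, 6.26 and 9.41 CPM in the WT treadmill libraries and 11.0, 6.50 and 8.29 CPM in the WT sedentary libraries. The groups overlapped in every comparison, and the highest library was WT sedentary replicate 1.

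Irf7 encodes the transcription factor that amplifies interferon production, and it is itself induced by interferon. It lies at chr7:141262706-141266481 (minus strand). Irf7 measured 4.37, 3.21 and 2.16 CPM in the KO treadmill libraries, 4.15, 3.82 and 4.21 CPM in the KO sedentary libraries, 3.31, 3.25 and 3.66 CPM in the WT treadmill libraries and 4.23, 4.06 and 4.15 CPM in the WT sedentary libraries. The KO treadmill libraries held both the highest and the lowest value of the 12, and the WT treadmill libraries lay below all WT sedentary libraries. Its log2 fold change between treadmill and sedentary was -0.32 (SE 0.19, adjusted p = 1) in KO muscle and -0.28 (SE 0.19, adjusted p = 0.999) in WT muscle. The value in KO muscle was -0.09 without KO treadmill replicate 3 and -0.61 without KO treadmill replicate 1.

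Ifi35 encodes a leucine-zipper protein that regulates innate immune signalling. It lies at chr11:101448407-101458698 (plus strand). Ifi35 measured 12.7, 14.7 and 13.8 CPM in the KO treadmill libraries, 13.5, 13.0 and 15.3 CPM in the KO sedentary libraries, 14.5, 12.9 and 12.6 CPM in the WT treadmill libraries and 14.3, 12.6 and 13.4 CPM in the WT sedentary libraries. All 4 groups overlapped, and with a coefficient of variation within groups of 7.59% it was the steadiest of the 9 genes. Its exons share 16.8% of their bases with the antisense gene Gm11626, those of Usp18 4.44% with Gm44148 and those of Irf7 1.19% with Phrf1, and reads from opposite strands cannot be told apart with the library kit used.

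The knockout was compared with wild type in sedentary muscle first. No gene of the 9 passed the threshold by edgeR or by DESeq2, where 0.19% of all genes tested did by edgeR. Rsad2 and Isg15 had an unadjusted p under 0.05 by edgeR, 2 of 9 genes, against 7.65% of all genes. The same 2 genes did not overlap between the groups, against 12% of all genes. The log2 fold change was above 0 in 8 of the 9 genes, with a median of 0.20, where 53.0% of all genes were above 0 and their median was 0.01. That median was 0.08 without KO sedentary replicate 1 and 0.13 without WT sedentary replicate 1. By differences of mean log2 levels it was 0.32 within lane 3, with 8 of 9 genes above 0, and 0.07 within lane 4, with 6 of 9 above 0. Within a lane most group means are a single library, here and in the comparisons below. Over all libraries the gene below 0 was Irf7, at -0.03 (SE 0.19).

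In treadmill muscle the log2 fold changes of the knockout over wild type lay between -0.40 for Isg15 and 0.07 for Rsad2. None passed the threshold by edgeR or by DESeq2, where 0.162% of all genes did by edgeR, and 0 of 9 had an unadjusted p under 0.05, against 6.72% of all genes. None of the 9 was free of overlap between the groups, against 13% of all genes. Values above 0 were found in 4 of 9 genes and the median was -0.07, which lay between -0.18 without WT treadmill replicate 2 and 0.04 without KO treadmill replicate 3 as each library was left out. For the knockout averaged over both exercise states the median was 0.05, with 7 of 9 genes above 0; it lay between -0.016 without KO sedentary replicate 1 and 0.11 without KO sedentary replicate 3 as each library was left out, and by differences of mean log2 levels it was 0.23 within lane 3 and -0.08 within lane 4. None of the 9 passed by edgeR or by DESeq2, where 0.69% of all genes did by edgeR. Rsad2 had the smallest p of the 9 in that average, with a log2 fold change of 0.32 (SE 0.11, adjusted p = 0.239), and was the 1 gene with an unadjusted p under 0.05, against 12.4% of all genes. None of the 9 was free of overlap between all KO and all WT libraries, against 1.79% of all genes.

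Exercise was compared with rest within each genotype. In KO muscle, where 49.9% of all genes had a log2 fold change above 0 between treadmill and sedentary, all 9 genes were below 0. They had a median of -0.26 and a range of -0.72 for Isg15 to -0.02 for Ifi35. The median was -0.15 without KO sedentary replicate 1 and -0.13 without KO treadmill replicate 3, and by mean log2 levels 8 of 9 genes were below 0 within lane 3 (median -0.27) and 6 of 9 within lane 4 (median -0.13). None passed by edgeR or by DESeq2, where 0% of all genes did by edgeR; Rsad2 and Isg15, 2 of 9, had an unadjusted p under 0.05, against 3.76% of all genes. Rsad2 was also the 1 gene of the 9 whose groups did not overlap, against 12.5% of all genes. In WT muscle the log2 fold change was below 0 in 6 of 9 genes, with a median of -0.05, while 50.9% of all genes were above 0. None of the 9 passed by edgeR or by DESeq2, where 0% of all genes did by edgeR. There 0 of 9 had an unadjusted p under 0.05, against 2.17% of all genes, while 3 of 9 did not overlap, against 5.72%: Isg15 and Usp18 lay higher and Irf7 lower in WT treadmill than in WT sedentary libraries. Averaged over both genotypes, none of the 9 passed by edgeR or by DESeq2, where 0% of all genes did by edgeR, and Rsad2 and Irf7 had an unadjusted p under 0.05, against 4.15% of all genes; 0 of the 9 were free of overlap, against 0.155% of all genes. The KO sedentary libraries enter both the sedentary knockout comparison and the exercise comparison in KO muscle, so a high level in them moves both, in opposite directions.

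The difference between the exercise effects of the genotypes was tested directly, as the effect in KO minus the effect in WT. The KO sedentary libraries enter this difference as well, so a high level in them lowers it. It was below 0 in all 9 genes over the 12 libraries, with a median of -0.21, where the median of all genes was -0.01 and 48.1% of them were above 0. By mean log2 levels it was below 0 in 6 of 9 genes within lane 3 (median -0.08) and in 6 of 9 within lane 4 (median -0.32). No gene of the 9 passed by edgeR or by DESeq2, where 0% of all genes did by edgeR. Isg15, Rsad2 and Usp18, 3 of 9, had an unadjusted p under 0.05, against 1.9% of all genes, with log2 values of -0.97 (SE 0.36) for Isg15, -0.51 (SE 0.22) for Usp18 and -0.49 (SE 0.21) for Rsad2, each with an adjusted p of 1 by edgeR. By mean log2 levels within lanes 3 and 4 this difference was -1.66 and -0.32 for Isg15, -0.37 and -0.61 for Usp18, and -0.86 and -0.69 for Rsad2. Most of the group means behind these within-lane values are a single library. The median over the 9 genes lay between -0.07 and -0.056 without KO sedentary replicate 1, KO treadmill replicate 3 or WT treadmill replicate 1, and between -0.40 and -0.32 without KO sedentary replicate 3, KO treadmill replicate 1, KO treadmill replicate 2 or WT treadmill replicate 2. The 95% intervals of this difference reached from 0.30 log2 units either side for Ifi35 to 0.87 for Ifit1. Differences up to those sizes could not be resolved at this depth and number of libraries. The intervals are not adjusted over all genes, so passing the threshold would take larger differences still.

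**Figure D3:**
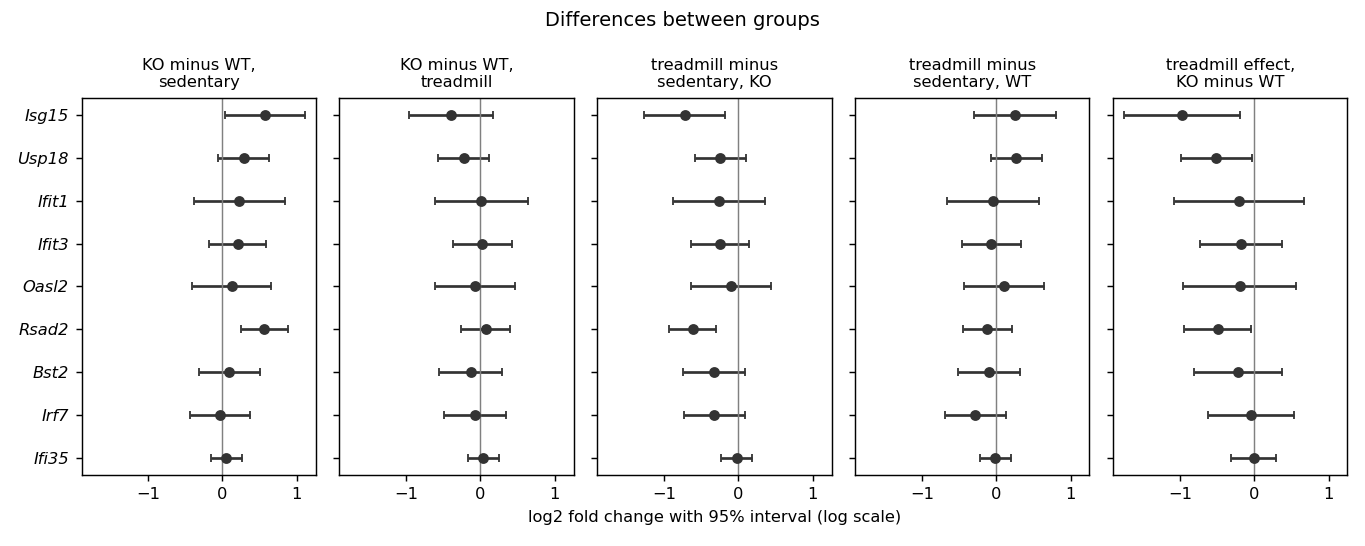
Log2 fold changes of the 9 genes with 95% intervals (edgeR), for the knockout in each exercise state, for exercise in each genotype, and for the difference between the exercise effects. Horizontal axes are log2 and the grey lines mark 0. The intervals of Rsad2 and Isg15 stay clear of 0 for KO minus WT in sedentary muscle and for treadmill minus sedentary in KO muscle. Those of Isg15, Usp18 and Rsad2 do so for the difference between the exercise effects. No gene passed after adjustment over all genes.

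The 9 genes did not vary as 1 block between libraries. Of their 36 pairs, Ifit1 and Ifit3 correlated most closely, with a Pearson r of 0.86 over the 12 libraries, followed by Ifit1 with Oasl2 at 0.83 and Ifit3 with Oasl2 at 0.77. These values were 0.85, 0.85 and 0.81 after the group means were removed, so that the 3 genes varied together between libraries of the same group. KO sedentary replicate 1 and KO treadmill replicate 3 lay farthest from the median in the mean of the 9 genes' scaled log2 levels. Without these libraries, and with the group means kept, the r of the same pairs was 0.77, 0.76 and 0.62. The median r of the 36 pairs was 0.26, with 7 pairs over 0.5 and 6 below 0. Rsad2 correlated with Ifit1 at 0.00 and with Oasl2 at -0.21, and at -0.53 and -0.67 after the group means were removed. KO sedentary replicate 1 was the highest library in 4 of the 9 genes and WT treadmill replicate 2 the lowest in 3. These correlations describe 12 libraries that share preparation and sequencing.

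**Figure D4:**
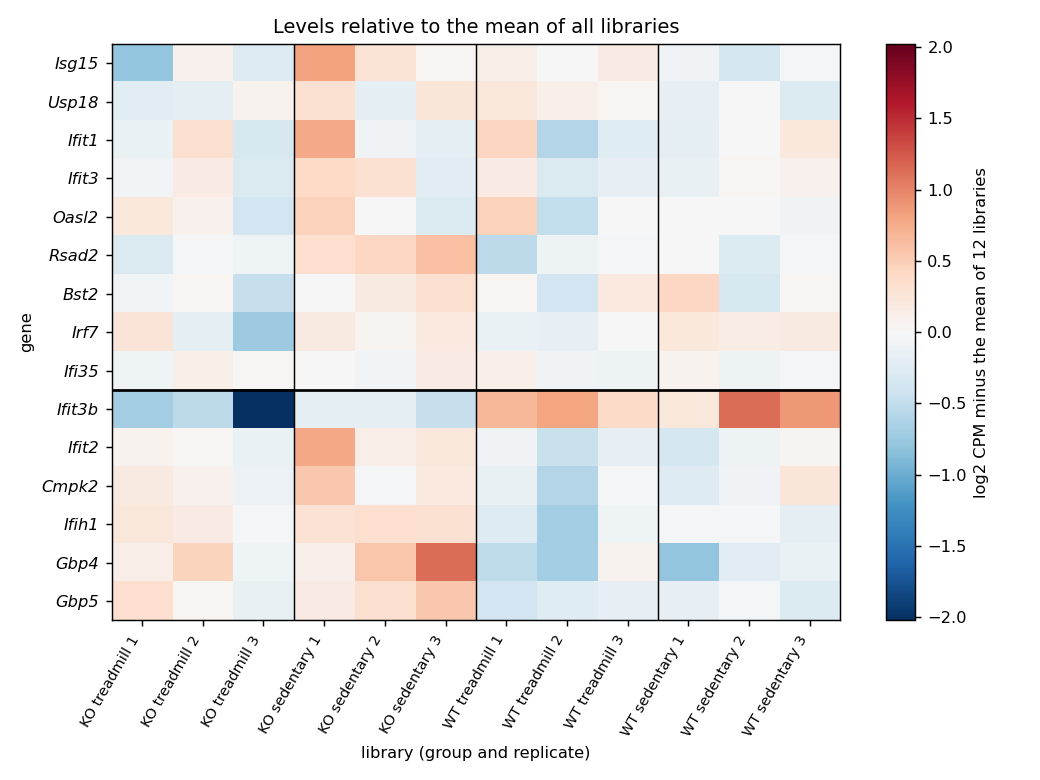
Level of the 9 genes (above the thick line) and of 6 related genes (below it) in each library. Colours give log2 CPM minus the mean of the 12 libraries, red for higher and blue for lower, and columns are libraries by group and replicate. Rsad2 is red in the 3 KO sedentary libraries, Ifit1, Ifit3 and Oasl2 share red columns, and Ifit3b is blue in all 6 KO libraries.

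Ifit3b, a near copy of Ifit3 on the same chromosome (chr19:34607970-34613401, plus strand), fell in the knockout by the reads assigned to it, in the comparison averaged over exercise states. Ifit3b had 40, 39 and 15 reads in the KO treadmill libraries, 52, 57 and 50 in the KO sedentary libraries, 129, 92 and 80 in the WT treadmill libraries and 102, 139 and 112 in the WT sedentary libraries. Every KO library lay below every WT library, where 1.79% of all genes were free of overlap in either direction. As CPM, it averaged 1.30 ± 0.63 in KO treadmill, 2.12 ± 0.24 in KO sedentary, 4.04 ± 0.58 in WT treadmill and 4.53 ± 1.37 in WT sedentary muscle (SD, n = 3 each). Averaged over exercise states, Ifit3b was 2.58-fold lower in the knockout (log2 fold change -1.37, SE 0.21), with an adjusted p of 0.00603 (edgeR quasi-likelihood test, Benjamini-Hochberg). The adjusted p lay between 0.00172 and 0.0248 when each library was left out in turn. Within sedentary muscle the log2 fold change was -1.08 (SE 0.29, adjusted p = 0.286) and within treadmill muscle -1.65 (SE 0.31, adjusted p = 0.0635), which passed with lane as a term at adjusted p of 0.0429 and 0.00779. With each library left out in turn, the adjusted p in treadmill muscle (edgeR) lay between 0.0213 and 0.212. It passed only without WT sedentary replicate 1, and was highest without WT treadmill replicate 2. In sedentary muscle it lay between 0.107 and 0.736 and never passed.

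Ifit3 itself had 102, 103 and 88 reads in the KO treadmill libraries, 128, 129 and 97 in the KO sedentary libraries, 143, 68 and 87 in the WT treadmill libraries and 124, 103 and 103 in the WT sedentary libraries. Its log2 fold change averaged over exercise states was 0.11 (SE 0.13, adjusted p = 0.768), with overlapping genotypes. Of the reads assigned to either gene, Ifit3b therefore took 14.6% to 34.0% in KO libraries and 45.1% to 57.5% in WT libraries, and these ranges do not overlap. With the reads of both genes summed, the knockout had a log2 fold change of -0.46 (SE 0.14, adjusted p = 0.17), which did not pass. The transcripts of the genes are 98% identical over 1697 aligned bases and their promoters 99.2% over 260 aligned bases, and the Ifit3b window at chr19:34607756-34607825 has the same 70 bases as the Ifit3 window printed above. Of the 50-base windows of the Ifit3 transcript 51.2% also occur in Ifit3b. How reads that match both genes were counted is not given in the sources used here, so the split between the copies is uncertain.

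**Figure D5:**
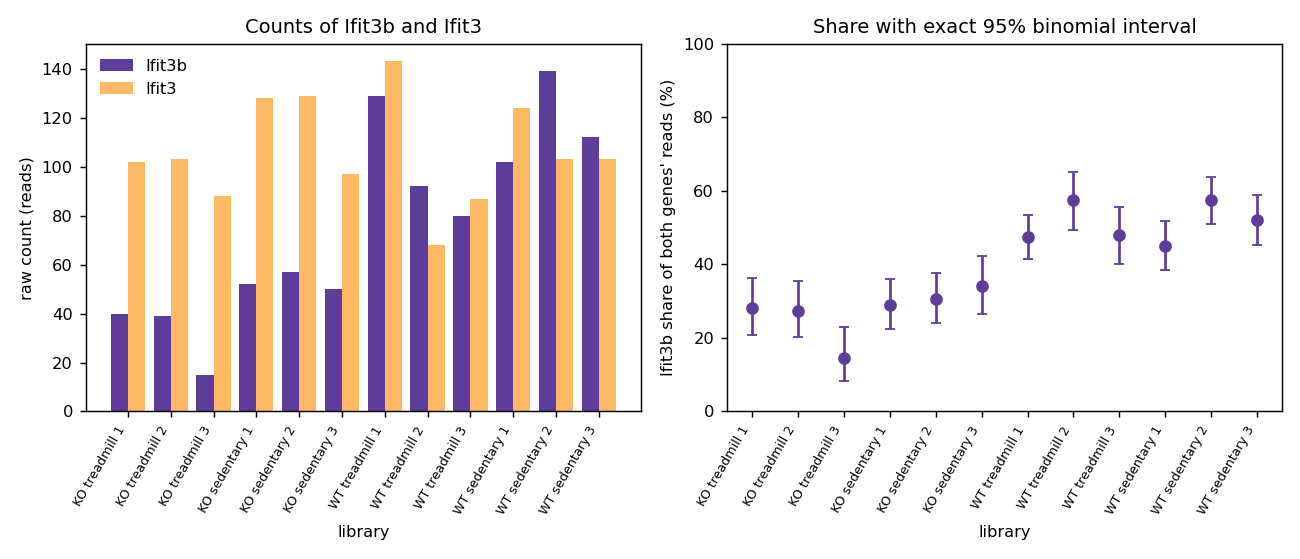
Reads of Ifit3b and Ifit3 in each library (left, raw counts from 0) and the share of Ifit3b in the reads of both (right, percent with exact 95% binomial intervals, which cover counting error only). Ifit3b shares run from 14.6% to 34.0% in the 6 KO libraries and from 45.1% to 57.5% in the 6 WT libraries.

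The remaining genes of the interferon pathway were taken from lists. Among the ligands, 20 interferon genes were in the table and 0 passed the filter: 17 had no read in any library, and Ifna6, Ifna16 and Ifng had 1 read each over all 12 libraries. A count of 0 in 1 library taken alone allows up to 3 expected reads there, and 0 in all 12 libraries allows fewer per library. Of 12 genes for interferon receptors and JAK-STAT signalling 11 were tested and none passed in any of the 7 comparisons by edgeR or by DESeq2; in the averaged knockout comparison 1 of 11 had an unadjusted p under 0.05, against 12.4% of all genes. The log2 fold change of the knockout averaged over exercise states was 0.00 for Stat2 and 0.15 for Irf9, parts of the interferon-activated complex, and 0.14 for Ifnar1 and -0.03 for Ifnar2, the receptor chains. Of 17 tested genes of nucleic acid sensing none passed by edgeR, and 2 of 17 had an unadjusted p under 0.05 in the averaged comparison, against 12.4% of all genes; by DESeq2 Irf5 passed there. Irf3, which starts interferon transcription, was at -0.08, Tmem173, the adaptor STING, at 0.06 and Irf5, a transcription factor of innate immunity, at 0.49 (SE 0.14, adjusted p = 0.148). Of the 4 tested genes of ISG15 conjugation none passed by edgeR or by DESeq2 and 0 had an unadjusted p under 0.05 in the averaged comparison, and Herc6, the mouse ligase for ISG15, was at 0.31 (adjusted p = 0.409).

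Of 58 other interferon-stimulated genes 54 were tested. Ifit3b was the 1 gene of the 54 that passed in the averaged knockout comparison by edgeR, lower, where 0.69% of all genes passed. None passed in the other 6 comparisons by edgeR. In sedentary muscle 9 of 54 had an unadjusted p under 0.05, against 7.65% of all genes. DESeq2 called Ifit3b in all 3 knockout comparisons and Ifih1, higher, in the averaged one. In sedentary muscle 42 of the 54 had a log2 fold change above 0 for the knockout, against 53.0% of all genes, with a median of 0.18. For exercise in KO muscle 7 of the 54 were above 0, against 49.9% of all genes, with a median of -0.18. Cmpk2, a nucleotide kinase gene that neighbours Rsad2, was at 0.28 (SE 0.20, adjusted p = 0.774) in sedentary muscle and was chosen for mention after its values were seen. Ifih1, the RNA sensor MDA5, averaged 6.74 ± 0.63 CPM in KO treadmill, 7.67 ± 0.12 CPM in KO sedentary, 4.89 ± 1.04 CPM in WT treadmill and 5.81 ± 0.34 CPM in WT sedentary muscle (SD, n = 3 each), with a log2 fold change of 0.43 (SE 0.10, adjusted p = 0.0649) averaged over exercise states. Ifih1 lies at chr2:62595798-62646255, on the same chromosome as the knocked-out Nfe2l2 (chr2:75675513-75704641). Whether that position bears on its level was not tested.

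Of 28 targets typical of interferon-gamma, such as guanylate-binding proteins and antigen presentation genes, 27 were tested and none passed in any comparison by edgeR. DESeq2 called Gbp4 in sedentary muscle and Gbp4, Gbp5 and B2m in the averaged comparison, all higher in the knockout. In sedentary muscle 24 of the 27 had a log2 fold change above 0 for the knockout, against 53.0% of all genes, with a median of 0.41, and 14 of 27 had an unadjusted p under 0.05, against 7.65% of all genes. Most of the 28 were highest in KO sedentary replicate 3. Their summed level was 345, 395 and 466 CPM in the KO sedentary libraries and 302, 295 and 327 CPM in the WT sedentary libraries. Of these sums B2m alone made up 168, 202 and 218 CPM in KO sedentary and 141, 142 and 159 CPM in WT sedentary libraries. In treadmill muscle 22 of the 27 were above 0 for the knockout, against 51.7% of all genes, with a median of 0.14. There 1 of 27 had an unadjusted p under 0.05 by edgeR, against 6.72% of all genes. Leaving out single libraries was not tried for this list. Gbp4, a guanylate-binding GTPase, measured 9.68, 12.1 and 8.31 CPM in the KO treadmill libraries, 9.50, 13.0 and 19.4 CPM in the KO sedentary libraries, 6.16, 5.42 and 9.28 CPM in the WT treadmill libraries and 5.03, 7.58 and 8.04 CPM in the WT sedentary libraries. The KO sedentary libraries lay above all WT sedentary libraries, while in treadmill muscle the genotypes overlapped. Averaged over exercise states the log2 fold change was 0.78 (SE 0.18, adjusted p = 0.0737) for Gbp4 and 0.44 (SE 0.11, adjusted p = 0.0782) for Gbp5.

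The genotype labels and the tissue were checked in the same libraries. Nfe2l2 lay between 2.14 and 3.23 CPM in the KO libraries and between 35.3 and 41.8 CPM in the WT libraries. By edgeR 9 of 11 tested NRF2 target genes fell in the knockout averaged over exercise states, where 0.69% of all genes passed in either direction. Markers of skeletal muscle fibres summed to 115640 CPM or more in every library. The 16 macrophage and antigen presentation markers were all detected, and their summed level ran from 263 to 387 CPM in KO treadmill, 366 to 478 CPM in KO sedentary, 214 to 542 CPM in WT treadmill and 260 to 442 CPM in WT sedentary libraries. In KO muscle 1 of the 16 had a log2 fold change above 0 between treadmill and sedentary, with a median of -0.20, the direction of the 9 interferon-stimulated genes there. In the same comparison the median was -0.55 over 6 erythroid markers (6 below 0), -0.38 over 6 adipocyte markers (5 below 0), -0.28 over 8 fibroblast markers (7 below 0) and -0.07 over 8 endothelial markers (6 below 0), and 0 genes of these lists passed by edgeR. Markers of neutrophils summed to at most 2.04 CPM and markers of lymphocytes to at most 1.85 CPM in any library. For the knockout the erythroid markers had a median log2 fold change of -0.62 in treadmill and 0.54 in sedentary muscle, the adipocyte markers -0.16 and 0.51, the fibroblast markers -0.06 and 0.13, and the endothelial markers 0.05 and 0.26. For the difference between the exercise effects the medians were -1.17 for erythroid markers (5 of 6 at an unadjusted p under 0.05), -0.68 for adipocyte, -0.17 for fibroblast, -0.15 for macrophage and -0.14 for endothelial markers. The summed erythroid level ran from 200.2 to 371 CPM in KO treadmill, 231 to 466 CPM in KO sedentary, 352 to 478 CPM in WT treadmill and 216 to 305 CPM in WT sedentary libraries. The part of these cell types in the values of the 9 genes was not tested. In bulk tissue, fewer cells of a type and less RNA per cell cannot be told apart. WT sedentary replicate 1 was alone on lane 7 and WT treadmill replicate 1 alone on lane 8, and lanes 3 and 4 held 5 libraries each from all 4 groups. Without the libraries of lanes 7 and 8 the median log2 fold change of the 9 genes was 0.13 for the knockout in sedentary muscle and -0.08 for the difference between the exercise effects.

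The genes that varied most like the 9 were found by their correlation, over the 12 libraries, with the mean of the 9 genes' scaled log2 levels. They were Gm8995 with a Pearson r of 0.93, Asap3 with 0.89, Smpd2 with 0.87, Bmp2 with 0.85, Dennd1c with 0.84 and Wnt5b with 0.84. These genes were picked as the highest of all genes tested. Without KO sedentary replicate 1 and KO treadmill replicate 3 their r lay between 0.72 for Dennd1c and 0.85 for Gm8995. None of the 6 belonged to a list used here. Gm8995 shares 8.65% of its 50-base windows with Gm8979 and 6.42% with Gvin1, a very large interferon-inducible GTPase, so its reads may be divided with those genes.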

How the data were processed

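Raw counts, 1 column for each library and 1 row for each Ensembl gene, were deposited by the authors. GRCm38 is the build in the submitters' processing notes, which list featureCounts 1.4.6-p4, STAR 2.4.1d and bcl2fastq 1.8.4. Strand setting, annotation release and the handling of multi-mapping reads are not given in the sources here. The kit, per the labels' protocols, was TruSeq RNA v2, which does not mark strand. Groups, replicate numbers and lanes were taken from the labels. A second deposited table, of RPKM, was not used, because its values are not scaled to each library's own total.

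Tests used edgeR 4.0.16 (R 4.3.3) with TMM scaling, filterByExpr (minimum count 10, minimum total 15), 1 coefficient per group over all 12 libraries and the quasi-likelihood test, with p-values adjusted by Benjamini-Hochberg over 14194 genes and a threshold of 0.05. Log2 levels used a prior count of 2. DESeq2 1.42.0 was an alternative, beside other scaling, no filter, lane as a term, single lanes, a replicate block and each library left out. Standard errors were derived from the fold change and its F statistic. Gene symbols, coordinates and exon lengths came from GENCODE M21 (GRCm38), and 47310 of 47729 genes had a symbol. Promoter sequences came from RefSeq on GRCm38.p6. The tests were checked on simulated counts.

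The members, the gene lists and the rule for named genes were chosen with earlier results of these data known. The rule names the 9 genes, Nfe2l2, Stat2, Irf9, Ifnar1, Ifnar2, Irf3 and Tmem173 always, every list gene past the threshold, the 2 genes of each pathway list with the smallest p in the averaged knockout comparison, and the 6 genes most correlated with the 9. A further gene of the rule is not reported here. WT libraries with the same replicate number deviated together from their group means (r = 0.54, 0.30 and 0.26 between WT treadmill and WT sedentary). Elsewhere at least 1 such r lay below 0.1. Replicate 2 was on lane 3 and replicate 3 on lane 4 in both WT groups, so for these replicates pairing of samples cannot be told apart from lane. Replicate 1, the pair with r = 0.54, was on lane 7 in WT sedentary and on lane 8 in WT treadmill. What that pair shares was not tested. The main fit used no pairing, and the replicate block was an alternative. Intervals cover counting error or the spread between libraries, as named.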

Additional observations from a re-analysis of the deposited data

How the results depend on the processing

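A total of 22 alternatives gave 139 counts of the 9 genes past the threshold, of which 2 were above 0: with no filter on low counts 1 gene passed for the knockout in sedentary muscle (Rsad2, log2 fold change 0.54, adjusted p = 0.0439) and 1 for exercise in KO muscle (Rsad2, -0.61, adjusted p = 0.0258). That setting also raised the genes past the threshold over the whole table to 323 and 139, against 27 and 0, and the cause was not tested. Of 1251 values of single genes 103 took the other sign, none of them past the threshold under any setting. Fitting edgeR to each lane alone compared all KO with all WT libraries of that lane, without separating the exercise states. The KO libraries were mostly sedentary in lane 3 and mostly treadmill in lane 4, so genotype is mixed with exercise there. The median log2 fold change of the 9 genes was then 0.38 within lane 3 and -0.07 within lane 4. Averaged over exercise states, the median was 0.05 over all libraries. By mean log2 levels that average was 0.23 within lane 3 and -0.08 within lane 4. With each library left out in turn the median for the difference between exercise effects lay between -0.40 and -0.056, that for the knockout in sedentary muscle between 0.08 and 0.29, that for exercise in KO muscle between -0.37 and -0.13, and the count of genes past the threshold stayed at 0 in all 7 comparisons. The replicate block (pairing by replicate number) left the median at 0.20 for the knockout in sedentary muscle and the count at 0 in all 7 comparisons; it changed no call of the 9 genes, and with it Ifit3b passed in treadmill muscle (adjusted p = 0.0145, against 0.0635 without it). Over the whole table the block called 42 genes for the knockout in sedentary muscle, 40 in treadmill muscle and 217 for the average, against 27, 23 and 98 without it. Summing Ifit3 with Ifit3b was chosen after seeing the data and left the count at 0. Under lane as a term Ifit3b passed in sedentary muscle (log2 fold change -1.23, adjusted p = 0.0429) and in treadmill muscle (-1.73, adjusted p = 0.00779), and under DESeq2 in sedentary muscle (-1.09, adjusted p = 0.0479) and in treadmill muscle (-1.65, adjusted p = 9.82e-05). Over the whole table the averaged knockout comparison called 98 genes, and between 31 and 567 under the alternatives. Isg15 rests on 20 to 58 reads per library, so counting error limits what can be resolved for it.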
